A study of Danio rerio with 8 samples.

Results

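The microRNA (miRNA) profile of unstressed zebrafish larvae was described in 4 libraries, named S- pools 1 to 4. All 434 genes whose annotated biotype was miRNA were taken as members, out of 32520 genes in the count table. The study set S- larvae, sired by undisturbed males, against larvae of males kept under chronic stress for 21 days, and only the 4 S- libraries of its 8 libraries were used here. The S- progenitors were AB wildtype zebrafish, 1 undisturbed male crossed with 1 undisturbed female per crossing, and each crossing counted as a biological replicate. Each library was made from 50 whole larvae at 7 days postfertilization (dpf), without any treatment of the larvae. Because whole larvae were pooled, fewer cells of a type and less RNA per cell cannot be told apart.

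miRNAs are short RNAs that bind matching sites in messenger RNAs and reduce their translation or stability. They are cut from longer hairpin transcripts, and many are made in only some tissues, so the miRNA content of a whole larva is a mixture of the profiles of its organs. In zebrafish, as in other vertebrates, several miRNAs have many gene copies, and several are encoded side by side and transcribed together. The values were gene-level counts, so both arms of a hairpin were added together.

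The S- libraries held between 3527034 and 4301348 counts. miRNA genes took 97.7%, 96.2%, 96.8% and 97.7% of the counts in S- pools 1 to 4, with a mean of 97.1% ± 0.722 (SD, n = 4). The largest other biotypes were antisense transcripts at 0.925% ± 0.0482 and protein-coding genes at 0.747% ± 0.267 (SD, n = 4). The long intergenic RNAs took 0.147%, 0.913%, 0.445% and 0.10% in S- pools 1 to 4, and were thus higher in pools 2 and 3 than in pools 1 and 4. The protein-coding share had the same order, with 0.540%, 1.05%, 0.895% and 0.505%. Levels are given below as CPM (counts per 1000000 counts of the library), and shares in percent of the miRNA counts of the library. How evenly the library preparation captured different miRNA sequences was not tested, so ratios between miRNAs are ratios of counts. With these depths the widest 95% Wilson interval for the share of the leading gene was 0.0277 percentage points on either side, which covers counting error only.

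Of the 434 miRNA genes, 311 had at least 1 count and 123 were at 0 in every S- pool. A count of 0 over the summed total of 15314705 allows a level of up to 0.196 CPM. At a minimum of 1 CPM, between 283 and 297 genes were detected in a single pool and 271 were detected in all 4. The mean level was at least 10 CPM in 262 genes, at least 100 CPM in 201 genes, at least 1000 CPM in 98 genes and at least 10000 CPM in 32 genes. The table gave a miRNA name to 320 of the genes, which held 88.2% of the miRNA counts. A further 12 genes with 9.49% of the miRNA counts were named through the reference table of gene identifiers and are written in its spelling (MIR96, for example). Of 319 genes that both sources named, 313 had the same miRNA number in both, so names from the reference table alone are less certain. The 102 genes that neither source named held 2.29%, and 84 of them were at 0 in all pools. Names are given below without the dre- prefix of the table.

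miRNA counts were concentrated on few genes. The first 13, 15, 16 and 14 genes held 50% of the miRNA counts in S- pools 1 to 4, and the first 64, 66, 66 and 64 genes held 90%. The leading gene of each pool took 8.21%, 7.53%, 5.38% and 6.84%. Over the 4 pools, the first 3 genes held 18.7% ± 2.13, the first 10 held 41.5% ± 2.65, the first 20 held 59.8% ± 1.42 and the first 50 held 85.7% ± 0.268 (SD, n = 4). The inverse Simpson index, the number of equally abundant genes that would give the same concentration, was 34.6, 38.6, 43.2 and 37.3. S- pool 1 was the most and S- pool 3 the least concentrated pool by the leading gene, the first 10 genes and this index. When genes of the same miRNA number were added into families, 7 of 134 families held 50% of the miRNA counts.

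**Figure D1:**
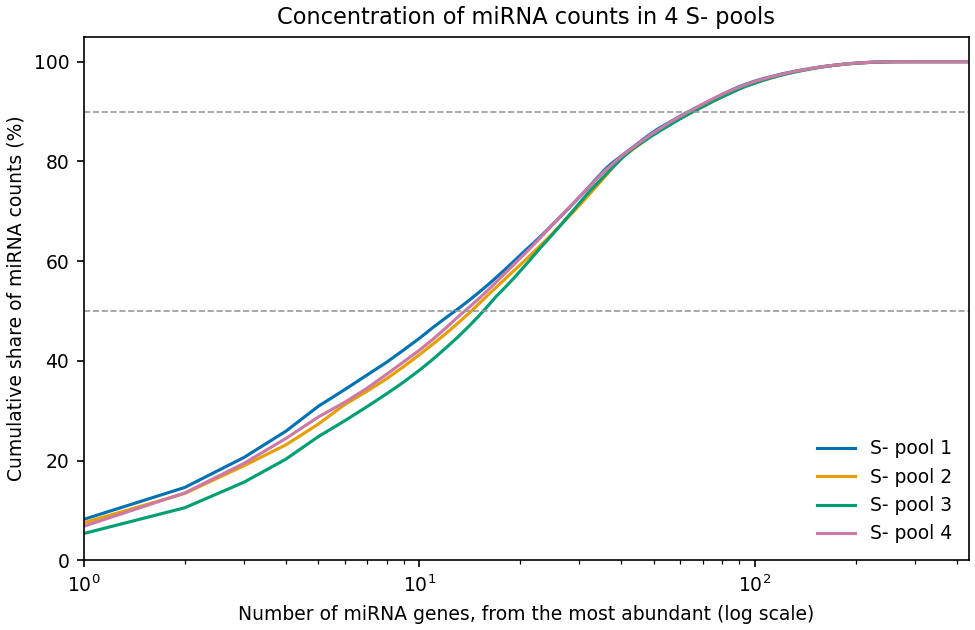
Cumulative share of miRNA counts (%) against the number of miRNA genes taken from the most abundant downward (log scale), with 1 line per S- pool and dashed lines at 50% and 90%. The lines cross 50% at 13 to 16 genes and 90% at 64 to 66 genes, and the line of pool 3 runs lowest over the first 10 genes.

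The 3 most abundant genes were the same in every pool. MIR96 (ENSDARG00000083126) is a sensory miRNA of hair cells and photoreceptors, and had 80202, 72453, 52040 and 65248 CPM in S- pools 1 to 4, with a mean of 67486 CPM ± 11971 (SD, n = 4). The table held no name for this gene, and its name rests on the reference table of identifiers. mir-216b (ENSDARG00000083359), known from the exocrine pancreas, had 62568, 56643, 49458 and 66824 CPM. mir-200a (ENSDARG00000081399) belongs to an epithelial family that represses the ZEB transcription factors, and had 58598, 53372, 50054 and 57834 CPM. MIR96 led in pools 1 to 3 and mir-216b led in pool 4, so the order of the first ranks was not the same in all pools. These ranks count each gene copy by itself. With genes of the same number and letter added together, mir-9 had a mean of 91154 CPM, above MIR96. The sum of mir-218a, at 67772 CPM, was close to MIR96.

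The next genes in the order were 2 neural miRNAs and a broadly expressed miRNA. mir-9-7 (ENSDARG00000081313), a copy of the neural progenitor miRNA mir-9, had 48928, 40189, 43859 and 48755 CPM. mir-218a-1 (ENSDARG00000081745), a copy of a miRNA known from motor neurons, had 51402, 40176, 30925 and 42224 CPM. mir-30c (ENSDARG00000080952), of a family found in many tissues, had 24261, 37871, 44760 and 24604 CPM. mir-30c was higher in pools 2 and 3 than in pools 1 and 4, and mir-218a-1 was highest in pool 1 and lowest in pool 3.

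The other members of the first 20 had mean levels between 14571 and 26590 CPM. They were the second mir-218a copy (mir-218a-2), the epithelial mir-200c, mir-200b and mir-429a, the mir-9 copies mir-9-5 and mir-9-1, the muscle gene mir-133a-2, both copies of mir-21, mir-26b, mir-457a, the eye-typical mir-204-2, mir-181a-2 and ENSDARG00000081800. ENSDARG00000081800 was named in neither source and had 16663, 18551, 20082 and 20948 CPM, which placed it between ranks 13 and 16 in every pool. Of the first 20 genes, 16 were among the first 20 of every pool, and 25 genes reached the first 20 of at least 1 pool.

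Neighbouring ranks were mostly not separated by more than the spread between pools. In 17 of the 19 neighbouring pairs among the first 20 genes, at least 1 pool had the opposite order. mir-200a was above mir-9-7 in 4 of 4 pools, with a ratio of mean levels of 1.21. mir-200b was above mir-9-5 in 4 of 4 pools, with a ratio of 1.23. With 4 pools, an exact two-sided sign-flip test of a pair gives a p of at least 0.13, so no order of 2 single neighbours can pass 0.05. mir-9-5 had the higher mean next to mir-133a-2, by a ratio of 1.01, but was above it in 1 of 4 pools.

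**Figure D2:**
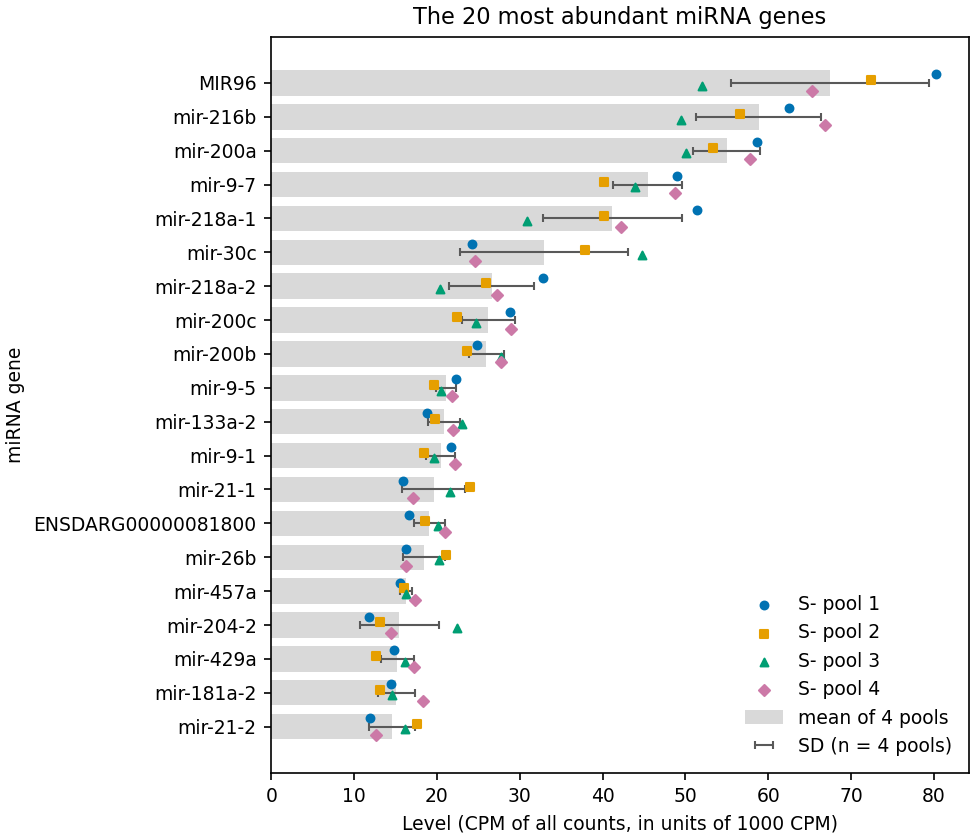
Level (in units of 1000 CPM of all counts) of the 20 most abundant miRNA genes, with the mean of 4 S- pools as bars, the SD as whiskers and each pool as a point. MIR96, mir-216b and mir-200a lead in every pool, and from mir-200c (26221 CPM on average) downward the points of neighbouring genes overlap, except those of mir-200b and mir-9-5.

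The miRNA genes were then grouped into 20 lists of families. Most lists were typical of a tissue or cell type, while the broadly expressed, proliferation, let-7, Hox cluster, teleost cluster and maternal clearance lists were not. The lists named 88 families, of which 84 matched a gene by name. The other 4, without a match, were mir-208, mir-214, mir-449 and mir-98. Shares are sums over all copies, and a gene counted as detected where it had at least 1 CPM in each of the 4 pools. The lists together left 167 genes and 6.17% ± 0.229 (SD, n = 4) of the miRNA counts unassigned.

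The neuronal and neural progenitor list held 24.2%, 20.8%, 18.8% and 21.5% in S- pools 1 to 4, a mean of 21.3% ± 2.25 (SD, n = 4). Its share was above that of the broadly expressed list (18.1%, 22.3%, 23.1% and 19.4%) in pools 1 and 4 and below it in pools 2 and 3, and without pool 1 the means were 20.3% and 21.6%, so these leading lists had no stable order. Of its 27 genes 26 were detected, and mir-9 made up 44.1% of it. The mir-9 family had 96278, 82750, 88460 and 97126 CPM. The mir-218 family had 97996, 77775, 58964 and 79407 CPM, more than mir-9 in pool 1 and less in the other 3 pools. The neuronal mir-153 family had 28720, 22948, 15699 and 20583 CPM and, like mir-218, was highest in pool 1 and lowest in pool 3. mir-128, enriched in brain, had 6476, 9368, 11914 and 6443 CPM and was highest in pool 3. mir-124, which marks differentiated neurons, had 2036, 1908, 2105 and 2235 CPM over its 6 copies, a mean of 2071 CPM ± 137 (SD, n = 4), and thus a far lower level than mir-9. mir-137 had 2034 CPM ± 472, mir-132 had 1777 CPM ± 490, mir-212 had 609 CPM ± 56.2 and mir-138 had 178 CPM ± 15.0 (SD, n = 4).

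The epithelium and skin list held 15.6%, 14.2%, 15.2% and 16.7%, a mean of 15.4% ± 1.04 (SD, n = 4), and all of its 9 genes were detected. The mir-200 family made up 71.6% of it and was the most abundant family, with 112196, 99427, 102429 and 114556 CPM. Its relatives mir-429a and mir-141 had 15235 CPM ± 1962 and 12229 CPM ± 1400 (SD, n = 4). The epidermal mir-205 had 9881, 10039, 11525 and 13716 CPM, highest in pool 4. mir-203, which limits the division of epidermal progenitors in mammals, had 2506, 3031, 3058 and 3286 CPM over 2 genes. S- pool 2 was lowest and S- pool 4 highest in the summed list.

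The sensory epithelium list of mir-96, mir-182 and mir-183 held 9.48%, 9.30%, 7.99% and 8.07%, a mean of 8.71% ± 0.789 (SD, n = 4). MIR96 made up 79.8% of it. mir-183 had 10157, 14238, 21882 and 10842 CPM, and mir-182 had 2237, 2793, 3468 and 2771 CPM. Both were highest in pool 3, the pool in which MIR96 was lowest. The eye list held 1.93%, 2.17%, 3.50% and 2.39%, with a CV (SD over mean) of its level of 27.5%, and pool 3 was highest. It consisted mostly of mir-204, a miRNA of the retinal pigment epithelium and lens, with 11754, 13154, 22430 and 14427 CPM in mir-204-2 and 5461, 6032, 9152 and 6980 CPM in mir-204-1. mir-184-2, of the lens and cornea, had 1645, 1640, 2263 and 1932 CPM, while the other copy, mir-184-1, averaged 5.61 CPM and was at 0 in pool 4.

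The proliferation list, which joined the miR-17, miR-106b and miR-15/16 type clusters, held 8.26%, 8.72%, 8.55% and 8.40% over 27 genes. Its summed level varied least of the 20 lists, with a mean of 82335 CPM and a CV of 1.66%, although several of its members varied strongly. mir-92a-1 had 4855, 8678, 12793 and 5289 CPM, while MIR19A had 9258, 8077, 4194 and 6543 CPM. A second gene, named mir-19a (ENSDARG00000099103), held 0.0307% of the sum of both and was at 0 in pools 1 and 4. mir-457a and MIR363 were steady, with 16283 CPM ± 750 and 10746 CPM ± 345 (SD, n = 4).

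The pancreas list held 6.69%, 6.17%, 5.4% and 7.12%, and 95.9% of it was mir-216. mir-217, another acinar miRNA, had 467, 426, 500 and 574 CPM. mir-7, of endocrine and neuronal cells, had 1571, 1657, 1591 and 1561 CPM over 4 genes. mir-375, which acts in insulin-secreting islet cells, had 342, 372, 572 and 383 CPM over 2 genes. mir-216b exceeded mir-217 by 120-fold, while its neighbour mir-216a had 361, 297, 197 and 245 CPM.

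The muscle list held 4.03%, 4.37%, 4.80% and 4.44%, and 8 of its 9 genes were detected. mir-133, which acts in muscle growth and differentiation, made up 68.6%, with 18754, 19743, 23036 and 21950 CPM in mir-133a-2. mir-206, of skeletal muscle, had 9991, 11297, 12559 and 10343 CPM over 2 genes. mir-1, which is transcribed with mir-133 and promotes muscle differentiation, had 2429, 2502, 2290 and 2294 CPM over 2 genes. The cardiac and slow muscle gene mir-499 had 0, 0, 1.38 and 0 CPM. Pool 1 was lowest and pool 3 highest for the list and for mir-206 and mir-133a-2, but pool 2 was highest for mir-1.

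Among the smaller lists, cartilage and mesenchyme held 1.37% ± 0.105 and gut and liver 1.33% ± 0.217 (SD, n = 4). mir-199-3, of connective tissue, had 9959, 11887, 12602 and 11950 CPM, while mir-199-2 was at 0 in all pools. mir140, the cartilage miRNA, had 1877, 1762, 1380 and 1632 CPM. mir-192, of gut and kidney epithelium, had 9374, 10083, 12592 and 8733 CPM. mir-122, the liver miRNA, had 1695, 1775, 2287 and 1449 CPM, but the reference table pairs the identifier of this gene (ENSDARG00000083634) with mir124-1, so its name is uncertain. The let-7 family, which accompanies differentiation in many animals, had 8118, 9593, 10103 and 8157 CPM over 19 genes, all of them detected, or 0.927% ± 0.110 (SD, n = 4). It was led by MIRLET7A3 (1993 CPM ± 280), let-7a-2 (1498 CPM ± 151) and let-7a-1 (1425 CPM ± 150).

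The endothelial list, which contained mir-126 alone, and the erythroid and leukocyte lists held smaller shares than the let-7 list. The endothelial and erythroid shares were 0.652% and 0.405% on average. The endothelial mir-126a, of a family encoded within egfl7, had 4810, 4525, 4285 and 4363 CPM, and mir-126b had 2103, 1858, 1564 and 1811 CPM. The erythroid mir-451 had 4194, 3688, 3184 and 4207 CPM, and mir-144, which lies beside it, had 142, 135, 74.7 and 92.1 CPM. All 7 leukocyte genes were detected, and the list held 0.233% ± 0.0428 (SD, n = 4). It was led by mir-146a, a miRNA of innate immune signalling, with 1300, 1601, 764 and 1223 CPM. mir223, of neutrophils and macrophages, had 313, 412, 452 and 530 CPM. mir150, of mature lymphocytes, had 180, 478, 485 and 164 CPM, with pools 2 and 3 high and pools 1 and 4 low. The smooth muscle genes mir-143 and mir-145 had 1702 CPM ± 130 and 1248 CPM ± 231 (SD, n = 4).

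The Hox cluster list held 0.402% ± 0.0616 (SD, n = 4), with 3202 CPM ± 524 in mir-10 and 700 CPM ± 53.5 in mir-196, which are encoded among the Hox genes that pattern the body axis. The oligodendrocyte list held 0.121% ± 0.0121, with 821 CPM ± 115 in mir-219 and 355 CPM ± 17.7 in mir-338. mir-34a, a p53 target in mammals, had 1829, 1662, 1515 and 1709 CPM, whereas mir-34b and mir-34c, known from ciliated cells, averaged 25 and 38.3 CPM. The teleost pair of mir-462 and mir-731 was the least abundant list, with 137, 152, 257 and 194 CPM, and its level had a CV of 29.1%.

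miR-430, which clears maternal transcripts in the early zebrafish embryo, held a small share of the miRNA counts and had rank 90 of 134 families. Its 55 genes together had 290, 252, 285 and 274 CPM, or 0.0284% ± 0.00158 (SD, n = 4) of the miRNA counts, and 8 of them were detected. Those 8 genes, all carrying the name mir-430a-2, had identical counts in each pool and 34.2, 28.4, 33.6 and 32.0 CPM each. In all, 34 miRNA genes with counts formed 6 sets of identical counts, and 28 of the 34 were miR-430 genes. The single copies of such a set cannot be told apart. All 18 mir-430c genes were at 0 in every pool. The part of read alignment and of the division of reads among copies in the miR-430 zeros and the number detected was not tested.

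The broadly expressed list of 22 families held 18.1%, 22.3%, 23.1% and 19.4%, a mean of 20.7% ± 2.37 (SD, n = 4), and 63 of its 64 genes were detected. Its leading families were mir-30 (48609, 65470, 69806 and 47718 CPM), mir-26 (30725, 40273, 40185 and 32035 CPM) and mir-21 (27773, 41550, 37712 and 29722 CPM). All 3 families were higher in pools 2 and 3 than in pools 1 and 4, the pools with the higher and the lower shares of long intergenic and protein-coding counts, respectively. The part of these other RNAs in that order was not tested. mir-181 went another way, with 17648, 16327, 18138 and 22202 CPM. mir-29, which targets collagens and other matrix genes, had 4954, 4095, 2798 and 3400 CPM over 3 genes, of which MIR29A (ENSDARG00000081841) had 2720, 2358, 1836 and 2161 CPM and rank 64.

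**Figure D3:**
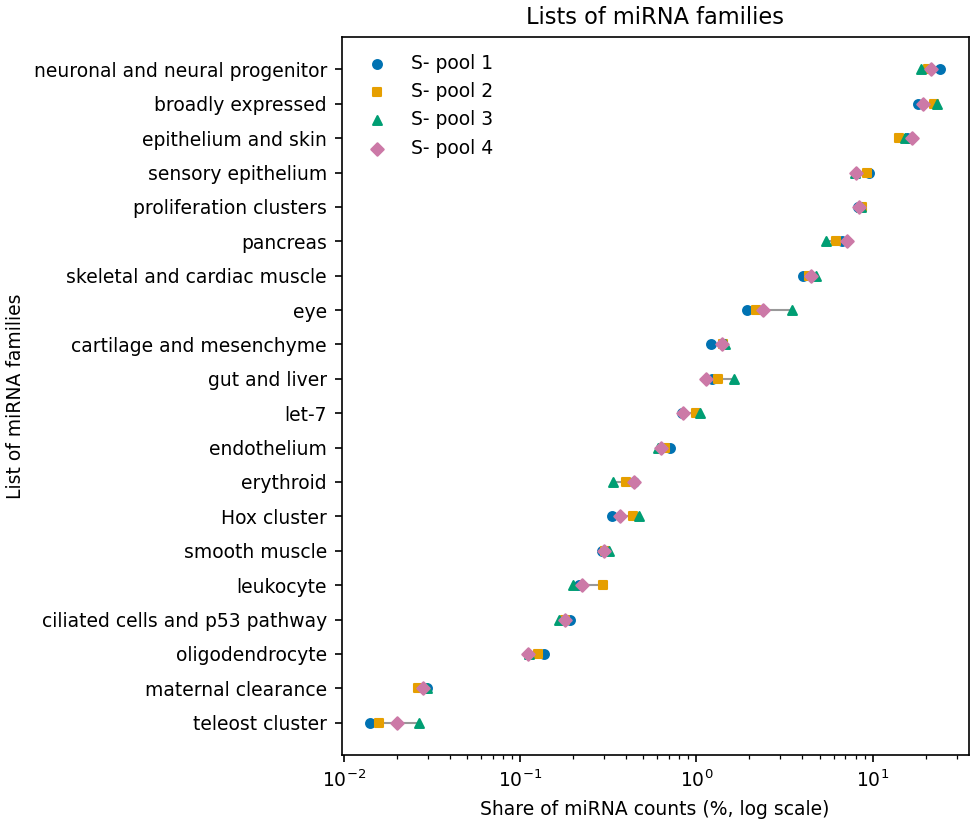
Share of miRNA counts (%, log scale) of each of the 20 lists of families, with 1 point per S- pool and a grey line from the lowest to the highest pool. Shares run from 0.0191% for the teleost cluster to 21.3% for the neuronal list on average, and the points of the eye and teleost lists spread most.

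Copies of one miRNA, meaning genes with the same number and letter, contributed unequally. Among 43 miRNAs with at least 2 copies and 100 CPM in sum, the leading copy held a median of 71.3%, and over 90% in 15 of them. Of the 7 mir-9 copies, mir-9-7 held 49.8% ± 0.960, mir-9-5 held 23.1% ± 0.511 and mir-9-1 held 22.4% ± 0.290 (SD, n = 4), while mir-9-4, mir-9-6, mir-9-3 and mir-9-2 held 4.15%, 0.428%, 0.0396% and 0.00275%. mir-133a-2 held 99.99% of mir-133a. mir-26a-1 held 77.9% ± 0.533 of mir-26a, and mir-128-1 held 96.0% ± 0.116 of mir-128. Families, which share only the number, also join miRNAs of different letters, and their genes contributed unequally too. The mir-200 family was shared as 51.3% on mir-200a, 24.4% on mir-200c and 24.3% on mir-200b. The mir-153 family was shared as 49.3% on mir-153c, 42.5% on mir-153b and 8.23% on mir-153a. In the mir-30 family, the share of mir-30c was 49.9%, 57.8%, 64.1% and 51.6%, and that of mir-30e-2 was 24.4%, 16.3%, 11.5% and 21.3%. The genes mir-30b, mir-30d and mir-30a held 14.3%, 10.6% and 0.798% of that family on average. In the mir-181 family, mir-181a-2 held 81.2% ± 0.977. How the estimation of multiply mapped reads divided them among copies of one sequence was not tested.

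The ratio between the 2 leading copies was often steadier than the copies themselves. mir-218a-1 over mir-218a-2 was 1.56, 1.55, 1.52 and 1.55 in S- pools 1 to 4, a CV of 1.27%, although the copies varied with CVs of 20.4% and 19.3%. mir-21-1 over mir-21-2 had a mean of 1.35 ± 0.0125 (SD, n = 4), with CVs of the copies of 19.3% and 18.8%. Of 28 such pairs, 19 had a ratio whose CV was below that of both copies. The mir-92a pair, an example chosen after its values were seen, had a less steady ratio of 3.06 ± 1.07 (SD, n = 4). The CV of this ratio, 35.0%, lay between those of mir-92a-1 (46.6%) and mir-92a-2 (15.1%). Reads that map to several genes were divided among them, and the part of this division in the steady ratios was not tested.

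The spread between pools exceeded counting error in most genes. Among the 201 genes with a mean of at least 100 CPM, the CV over the 4 pools had a median of 13.9%, quartiles of 9.83% and 20.4%, and a range from 2.44% to 54.8%. Counting error alone gave a median CV of 1.69% and at most 4.95%. The observed CV was more than 2 times the counting CV in 191 of 201 genes and below it in 2. It was above 25% in 37 genes and below 10% in 56 genes. The biological coefficient of variation estimated by edgeR, which fits the counts and removes counting error, had a median of 20.9% over 262 miRNA genes. That estimate draws each gene toward the other rows of the fit, whose common value was 40.5% with the non-miRNA genes included and 20.6% with miRNA genes alone.

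The 8 most variable genes were mir150, mir-725, mir-92a-1, mir-153a, mir-15c, mir-29b-1, mir-16b and mir-9-6, with CVs from 54.8% down to 38.0%. mir-725 had 1161, 816, 464 and 341 CPM, a 3.41-fold range. mir-153a had 2780, 2246, 1050 and 1388 CPM, and mir-29b-1 had 2018, 1476, 855 and 1035 CPM. These genes were high in pool 1 and low in pools 3 and 4. mir-15c had 131, 201, 301 and 139 CPM, and mir-16b had 643, 1254, 1637 and 936 CPM, both highest in pool 3 and lowest in pool 1. mir-9-6 had 362, 205, 455 and 559 CPM, highest in pool 4 and lowest in pool 2.

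The 5 least variable genes were mir-2187, mir-10c, mir-194a, MIR363 and mir-27c, with CVs from 2.44% to 3.55%. mir-2187 and mir-27c were the 2 genes below their counting CVs of 3.56% and 3.72%, and mir-10c, at 2.50%, was at its counting CV of 2.49%, so the spread of these 3 genes was not separable from counting error. mir-10c, a Hox cluster miRNA, had 430, 420, 407 and 429 CPM. mir-194a, of gut and liver, had 685, 715, 725 and 722 CPM. Its CV was 2.58% against a counting CV of 1.92%, and whether it exceeded counting error was not tested. MIR363 combined a CV of 3.21% with a high level, at 10755, 10816, 10288 and 11123 CPM.

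**Figure D4:**
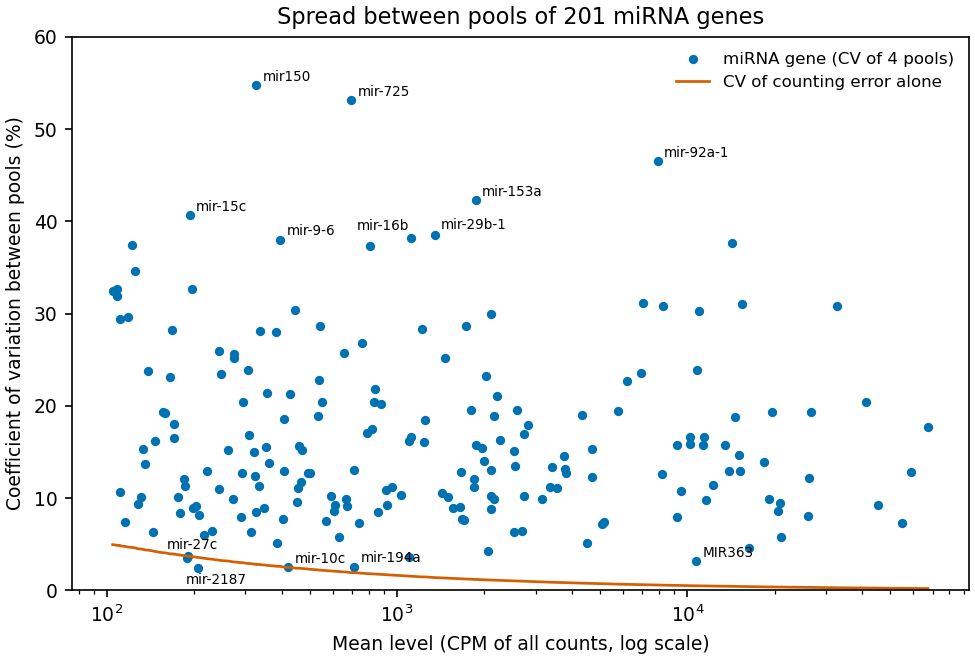
Coefficient of variation between the 4 S- pools (%) against the mean level (CPM, log scale) for the 201 miRNA genes with at least 100 CPM, with the line of the CV that counting error alone would give. The points run up to mir150 at 54.8%, and all but 2 of the 201 lie above the line, the exceptions being mir-2187 at 2.44% and mir-27c at 3.55%.

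S- pool 3 differed most from the others. Of the 201 genes, 49, 31, 76 and 45 had their highest level in S- pools 1 to 4, and 74, 48, 58 and 21 had their lowest level there. Of the 37 genes with a CV above 25%, 11, 4, 20 and 2 were highest in S- pools 1 to 4. In the same order, 14, 2, 14 and 7 of them were lowest, so pools 1 and 3 were equal in that count. Across the 201 genes, the root mean square log2 difference was smallest between pools 1 and 4, at 0.30. It was largest between pools 1 and 3, at 0.54. There, 15 genes differed by more than 2-fold, against 1 to 5 genes in the other pairs of pools. Pearson correlations of log2 levels across the 201 genes were between 0.975 and 0.992, as a description over genes, which are not independent replicates.

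miRNA genes encoded side by side did not have equal levels. Genes were placed by matching their miRNA names to the RefSeq annotation of the GRCz12tu assembly, so each place is as certain as the name. By these places, 107 of 265 placed miRNA genes lay within 10000 bp of another, in 44 clusters. In the 41 clusters with at least 2 members of 10 CPM, the highest member exceeded the lowest such member by a median of 8.74-fold, and by more than 10-fold in 20 of them. Some of the lowest members were minor copies of a miRNA just above 10 CPM. mir-15a-2, for example, had 11.2 CPM and lay 63.2-fold below its neighbour. The part of the division of multiply mapped reads in such spans was not tested. The widest span was 214-fold, between mir-216b and mir-216a. In the cluster of the sensory miRNAs, MIR96 had 4.73 times the mean level of mir-183 and 24 times that of mir-182. The place of MIR96 in this cluster rests on its name from the reference table of identifiers. mir-451 had 34.4 times the level of mir-144, and mir-192 had 14.3 times that of mir-194a. The neighbours mir-221 and mir-222a, with 11427 and 13874 CPM, and mir-15b and mir-457a, with 9201 and 16283 CPM, were closer.

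Neighbours also differed in which pool was highest. Relative to its own mean, mir-183 had 0.711, 0.997, 1.53 and 0.759 in S- pools 1 to 4, and MIR96 had 1.19, 1.07, 0.771 and 0.967. mir-30c had 0.738, 1.15, 1.36 and 0.748, and its neighbour mir-30e-2 had 1.16, 1.05, 0.786 and 1.00. In the cluster of mir-17a-1, mir-18a, mir-19b, mir-20a and mir-92a-1, the relative level of mir-92a-1 was 0.614, 1.10, 1.62 and 0.669, while mir-18a had 1.22, 1.02, 0.755 and 1.01. mir-19b and mir-20a were lowest in pool 3, like mir-18a, and mir-17a-1 was not. In contrast, the neighbours mir-221 and mir-222a were both lowest in pool 2, and mir-133b and mir-206-1 were both highest in pool 3 and lowest in pool 1.

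**Figure D5:**
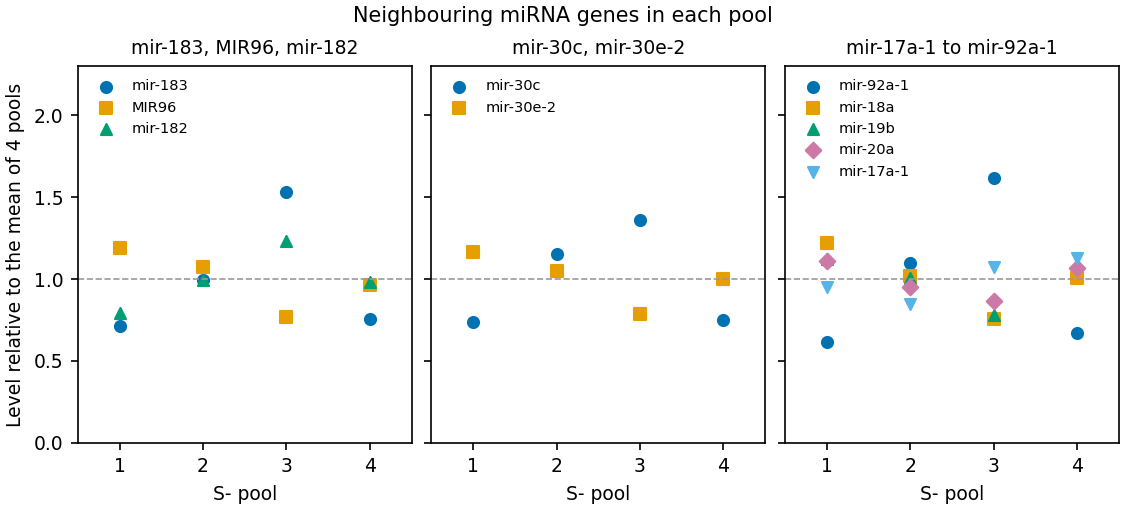
Level relative to the mean of the 4 S- pools (dashed line at 1) for neighbouring miRNA genes of 3 clusters, by pool. Genes were placed by name, and the name of MIR96 rests on the reference table of identifiers. mir-183, mir-30c and mir-92a-1 lie highest in pool 3 (1.53, 1.36 and 1.62), where MIR96, mir-30e-2 and mir-18a lie lowest (0.771, 0.786 and 0.755).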

How the data were processed

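Small RNA libraries of pooled zebrafish larvae were sequenced by the authors on an Illumina NovaSeq instrument. According to the study's methods, reads were trimmed with Trim Galore 0.6.6, aligned with STAR 2.7.8a under small RNA settings to GRCz11 with an Ensembl annotation, and quantified per gene with RSEM 1.3.0. The deposited values were estimated counts held as whole numbers, not normalised, with reads that map to several genes divided among them. The methods' library text describes a total RNA kit with molecular identifiers. The small RNA kit, and whether duplicate reads were removed, are not given in the sources used here, so counts may not be independent molecules.

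From these, CPM of each column total, shares of miRNA counts, ranks, means, SDs and CVs over 4 pools were computed with pandas 2.3.3 (Python 3.11.15). Dispersion was estimated with edgeR 4.0.16 (intercept only, mean of at least 10 CPM), and DESeq2 1.42.0 served as an alternative. Only the edgeR estimate was tested on simulated data. The columns of the 4 libraries from stressed males were not used, and no groups were compared. The pools came from separate crossings.

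The members and lists were chosen with earlier results of these data known. Genes were named by rule. The rule took the 20 most abundant genes, and for each list the family sums and up to 3 genes. It also took every gene of the 8 most abundant families with at least 3 genes. The 8 most and 5 least variable genes above 100 CPM, and neighbours, completed it. Mature sequences were not used here.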

Additional observations from a re-analysis of the deposited data

Results flagged for a closer look

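Of 134 values examined across the 4 pools (named genes, lists, families, shares), 1 had a pool set far apart from the others. mir-10d, a Hox cluster miRNA, had 507 CPM in S- pool 1 against 585 to 600.3 CPM in the other 3 pools, so that the gap made up 0.838 of the whole range. Chance flags about 1 in 20 such groups, or 6.7 of 134, which is more than the 1 flagged. The 134 values overlap, because named genes also enter the lists and families.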

How the results depend on the processing

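The number of genes holding 50% and 90% of miRNA counts, the number detected in every pool and 19 of 20 list shares moved by less than the spread between pools, or by less than 1.5 times for counts, under every alternative run. The share of the first 10 genes, 41.3% in the mean profile, was 49.6% with copies of one miRNA summed. The miRNA share of counts was 97.8% of noncoding counts, and the share of the proliferation list was 8.23% of all counts. The median CV was 15.2% at a minimum of 10 CPM and 17.5% with no minimum, and between 11.8% (without pool 3) and 14.6% when 1 pool was left out. The biological coefficient of variation was 19.0% at a minimum of 100 CPM, 18.2% with miRNA rows only, 17.9% by DESeq2, and between 19.3% and 23.3% (without pool 4) when 1 pool was left out. Of 630 alternative values for 90 named genes, 3 moved beyond the SD, all with the miRNA total as denominator. The shares of 43 leading copies moved by less than their SD under all 5 alternatives run. For list shares, named genes and leading copies, a mean without 1 pool must lie within the SD of the same 4 pools. The median over pools, run for the named genes, must do so too. Those alternatives could therefore not move, and only changes of scaling, denominator or pooling of counts could have done so. No paired analysis was possible because only the S- pools were described and no groups were compared. Depth limits the genes below about 1 CPM.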
